A study of Homo sapiens with 8 samples.

Results

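The RNF and TRIM genes encode ubiquitin ligases and close relatives of them, and their transcripts were followed here through 4 lists of QKI7-bound RNA. Members were all genes whose listed name begins with RNF or TRIM and a digit, with 2 genes of the RNF series (RNF111 and RNF213) left out. The rule uses names and no measured value. It found 58 genes (38 RNF and 20 TRIM) among the 6520 genes named in any list, with 350 of the 42083 peaks.

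A ubiquitin ligase brings a substrate together with an E2 enzyme that carries ubiquitin, which an E1 enzyme has activated. Most RNF and TRIM proteins bind the E2 through a RING finger, a zinc-binding fold, and TRIM proteins add B-box and coiled-coil parts behind it. The modification marks proteins for the proteasome or changes what they bind, and members act in DNA repair, membrane traffic, Polycomb silencing and antiviral signalling. QKI7 is a cytoplasmic isoform of Quaking, an RNA-binding protein that controls splicing, stability and translation of mRNA.

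The study measured RNA that came down with QKI7 in HepG2, a human liver cancer line. All cells carried Cas9 and a lentiviral 3 x Flag-QKI7 transgene, so QKI7 was overexpressed in both arms, and GFP-positive cells were kept. They received a control guide (sgNS, labelled control) or a guide against METTL1 (sgMETTL1, labelled METTL1 KO), the enzyme that with WDR4 writes 7-methylguanosine. After UV cross-linking, QKI7 and its RNA were pulled down through the Flag tag, and the 8 samples formed 4 groups of 2: input and IP for each guide. The data are 1 list of peaks per pair of IP and input, so each guide had 2 lists, called replicates below. The labels do not state the promoter of the transgene, whether the cells were a clone, or whether replicates were separate cultures, so p-values measure the spread among these samples alone, and that spread may be technical.

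A peak is a stretch of exon where IP reads exceeded input reads. The authors computed its fold (IP over input) and its p-value, and the reads they rest on are not given, so the depth is unknown. Lists held 9388 to 11562 peaks in 4981 to 5570 genes, fewer in both sgMETTL1 lists than in both sgNS lists. METTL1 and WDR4 had no peak, so the lists do not check the knockout. Of 11 hepatocyte markers, 6 had a peak (APOB, SERPINA1, FGA, FGB and HNF4A in all 4 lists, ALB in 1), and AFP, APOA1, APOA2, TTR and TF had none. Of 8 blood, fibroblast and endothelial markers, 1 had a peak (HBB, in 1 list). A gene without a peak may still be expressed, because a peak reports enrichment over input.

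The share of RNF and TRIM genes with a peak was close to that of protein-coding genes in general. RefSeq holds 160 protein-coding genes whose current symbol meets the name rule, and 57 of them (35.6%) had a peak, beside 32.3% of all 20052 protein-coding genes. The share was 37 of 83 for RNF genes and 20 of 77 for TRIM genes. Of the 58 members, 37 (63.8%) stood in all 4 lists, beside 63.7% of all genes with a peak, 8 in 3 lists, 8 in 2 and 5 in 1. Among the members, 21 of 38 RNF and 16 of 20 TRIM genes were in all 4 lists. The 5 members of a single list were RNF157, RNF212B, RNF32, RNF40 and RNF5.

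**Figure D1:**
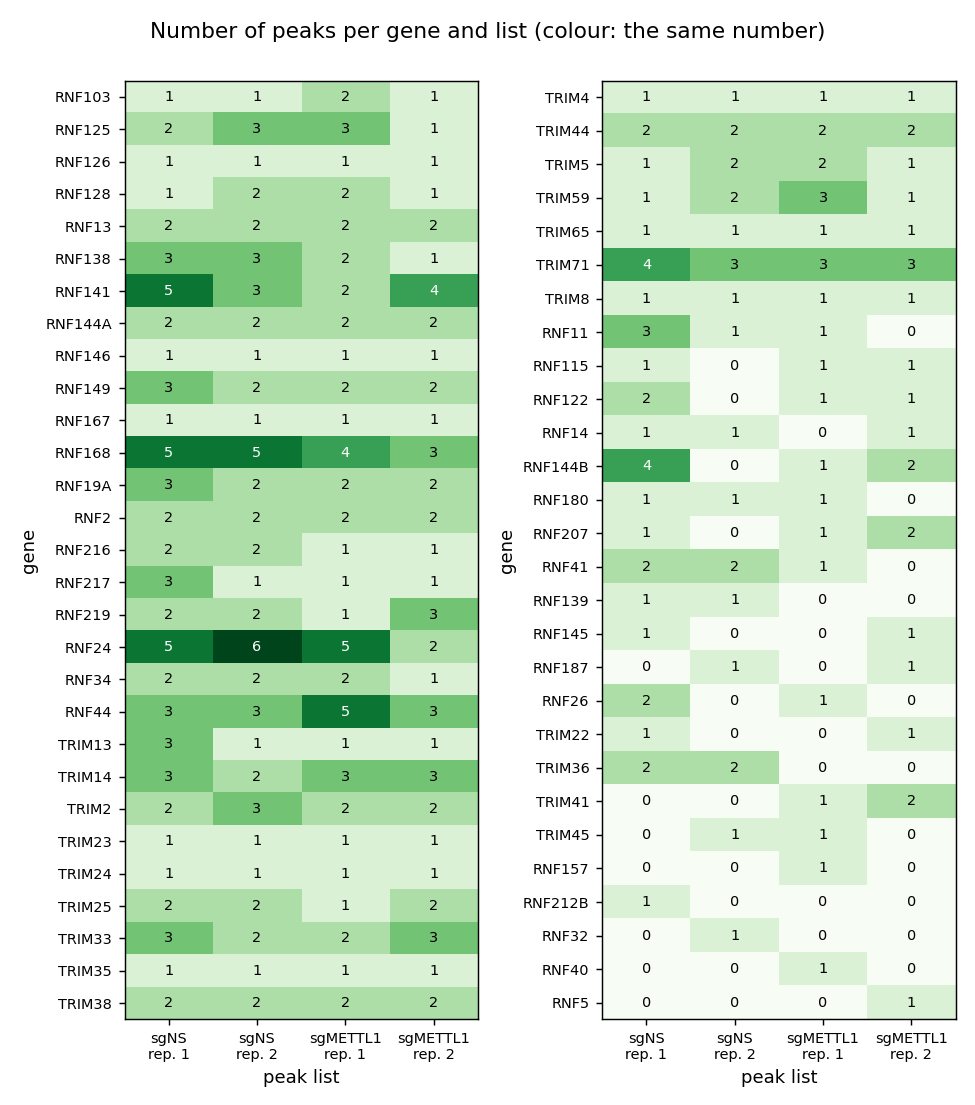
Number of peaks of 57 of the 58 members (rows) in each of the 4 lists (columns), with darker green for more peaks. The 36 members listed first (from RNF103 in the left panel to TRIM8 in the right) have a peak in every list, and RNF24 reaches 6 peaks in replicate 2 of sgNS.

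Member peaks were described by fold, number and place. Their median fold was 4.33 and 5.07 in the sgNS lists and 4.23 and 4.12 in the sgMETTL1 lists, and over all peaks it was 4.58, 4.33, 4.47 and 4.44 in the same order. A listed member had on average 2.00 and 1.89 peaks in the sgNS lists, 1.71 and 1.64 in the sgMETTL1 lists, beside 2.08, 2.06, 1.98 and 1.88 over all genes. The centre of the peak lay in the last 10% of the gene's RefSeq span, at its 3′ end, for 75.5 and 77.0% of member peaks in the sgNS lists, and for 65.5 and 67.5% in the sgMETTL1 lists. Over all peaks these shares were 74.7, 74.8, 73.7 and 73.6%, so the member share was lower than that of all peaks in both sgMETTL1 lists. Median member widths were 239 and 299 bases with sgNS and 211 and 210 with sgMETTL1, beside 270, 270, 240 and 241 over all peaks. Peaks of 1 gene share a transcript, and the difference between the guides in this share was not tested.

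Most of the strongest members carried their leading site near the 3′ end of the gene's RefSeq span, and RNF125 did not. Distances were taken to the end of that span, and where the single transcripts end was not examined. RNF125, a ligase that acts on the RNA sensor RIG-I, had strongest folds of 24.3 and 38.0 in the sgNS lists and of 36.6 and 22.2 under sgMETTL1, and the guides overlapped. These values came from different places. The gene had 5 sites on the plus strand of chromosome 18, and none of them was in all 4 lists. They lay 19438 bases or more from the 3′ end of the RefSeq span. The site of the sgNS folds (32068858 to 32069336, GRCh38) was also in replicate 1 of sgMETTL1, at 33.5-fold. In replicate 2 of sgMETTL1 its only peak was 61 bases long, with a −log10 p of 3.79.

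RNF2 encodes the RING1B subunit of Polycomb repressive complex 1, which ubiquitinates histone H2A. Its strongest fold was 22.0 and 21.1 in the sgNS lists against 29.0 and 55.5 in the sgMETTL1 lists, at a site on the plus strand of chromosome 1 (185101355 to 185102459). In replicate 2 of either guide this strongest fold belonged to a short peak beside a longer one: 120 bases with sgNS (−log10 p of 4.05) and 270 bases with sgMETTL1 (−log10 p of 10.4). The longer peaks there had folds of 12.2 and 10.2, so over the main stretch of the site the folds were 22.0 and 12.2 against 29.0 and 10.2, and the guides overlapped.

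TRIM4, which also acts on RIG-I signalling, had a single site on the minus strand of chromosome 7 (99890437 to 99892046), where the sgNS folds were 27.8 and 12.4 and the sgMETTL1 folds 21.3 and 25.0. The sgNS replicates spanned both sgMETTL1 values. TRIM59, a transmembrane TRIM protein, spread more: 18.5 and 73.9 with sgNS against 18.3 and 8.33 with sgMETTL1, so that 1 sgNS list set its high rank. The 18.3 came from a different site, and at the site of the other values that list had 13.2.

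**Figure D2:**
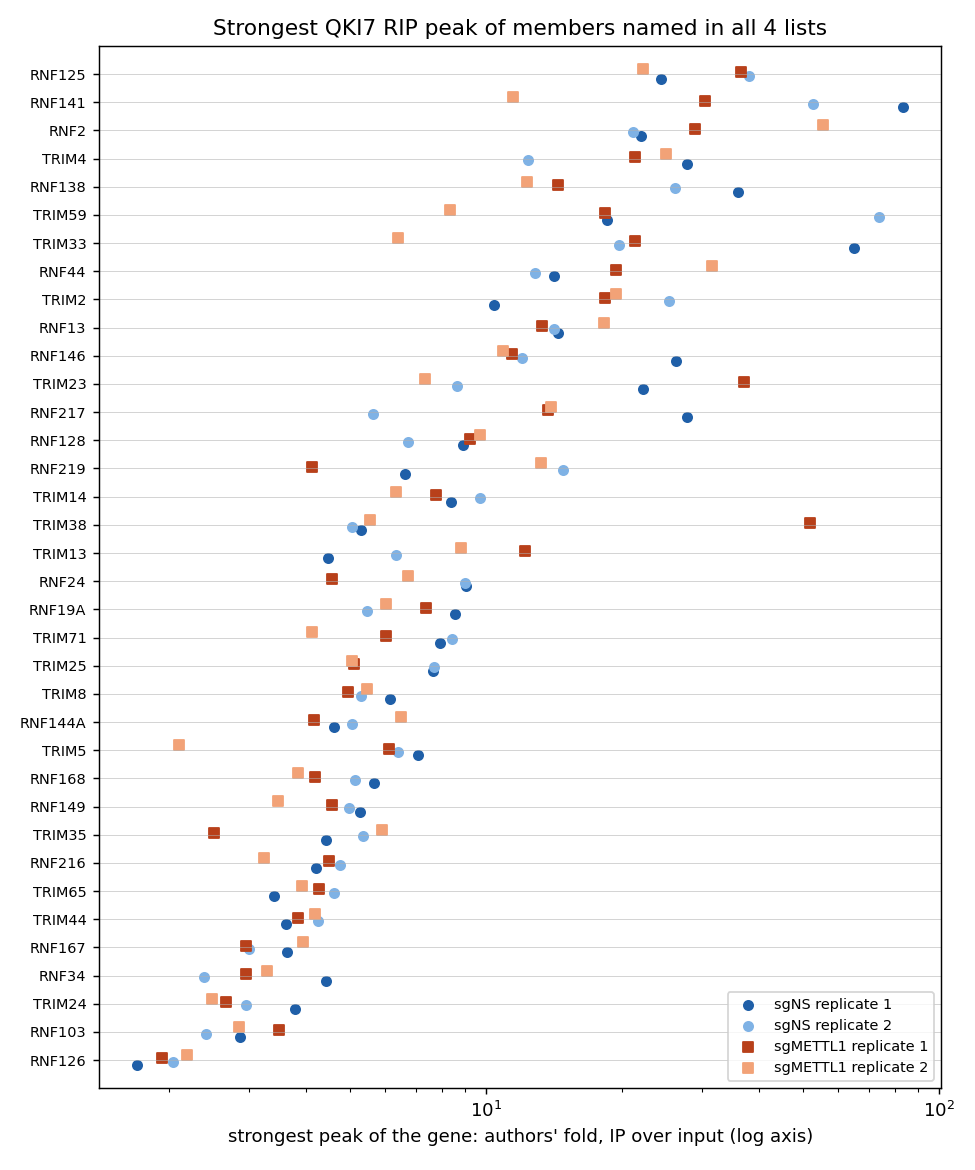
The authors' fold (log axis) of the strongest peak of 36 of the 37 members named in all 4 lists, ordered by mean rank; circles are sgNS lists and squares sgMETTL1 lists, 1 point per list. RNF125 is at the top with 22.2 to 38.0 and RNF126 at the bottom with 1.70 to 2.19. The circles and squares overlap for some members (such as TRIM4) and not for others (such as RNF138 and RNF44).

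By role, membrane and repair ligases were found at all levels of fold. Among RING-between-RING ligases, which pass ubiquitin through a cysteine of their own, 6 of 8 genes had a peak and 4 were in all 4 lists. RNF217 had strongest folds of 27.8 and 5.63 under sgNS and of 13.7 and 13.9 under sgMETTL1, but from 3 different sites, none of which was in all 4 lists. At the site of both sgMETTL1 values, replicate 1 of sgNS had 2.95 and replicate 2 no peak. RNF19A had 8.54 and 5.47 against 7.36 and 6.02 at 1 site, and the guides overlapped. RNF144A had 4.63 and 5.07 against 4.18 and 6.48, where the 4.63 came from a different site than the other values.

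Of the 9 ligases with a protease-associated domain outside the membrane, 4 had a peak, and all 4 of those were in every list. RNF13, found on endosomes and lysosomes, had 14.4 and 14.1 with sgNS and 13.3 and 18.2 with sgMETTL1. RNF128 (GRAIL), known from T cell anergy, had 8.88 and 6.72 against 9.24 and 9.72, with both sgMETTL1 values above. RNF149 had 5.27 and 4.99 against 4.57 and 3.47, where the 3.47 came from a different site than the other values. At its site in all 4 lists RNF149 had 4.25 and 2.75 against 2.45 and 2.1, with both below. The Wnt regulator RNF43 of this group had no peak.

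Of 15 other membrane-bound ligases, 8 had a peak and 2 were in all 4 lists. RNF24, a small membrane RING protein, had 9.04 and 8.98 with sgNS and 4.57 and 6.74 with sgMETTL1. RNF103, of the endoplasmic reticulum, had 2.87 and 2.41 against 3.50 and 2.85.

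Of 8 ligases of chromatin and DNA repair, 4 had a peak and 3 were in all 4 lists. RNF168, which ubiquitinates histone H2A at DNA breaks, had 5.67 and 5.15 with sgNS and 4.19 and 3.85 with sgMETTL1. RNF138, which promotes resection of broken DNA ends, had 36.0 and 26.2 against 14.4 and 12.3. RNF40 had 1 weak peak in 1 list, and RNF4, RNF8 and RNF20 had none.

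The TRIM groups were covered in part. Of the 4 TRIM genes with a PHD finger and bromodomain, TRIM24 and TRIM33 were in all 4 lists and TRIM28 and TRIM66 in none. TRIM33, a ligase for SMAD4, had 64.8 and 19.7 with sgNS and 21.3 and 6.40 with sgMETTL1. TRIM24 had 3.79 and 2.95 against 2.67 and 2.49. Of the 4 with NHL repeats, TRIM2 had 10.4 and 25.4 against 18.3 and 19.4, from different sites. At its only site in all 4 lists TRIM2 had 6.94 and 8.75 against 12.2 and 5.09, and the guides overlapped. TRIM71, an mRNA repressor of stem cells and a let-7 target, had 7.90 and 8.42 against 6.01 and 4.12.

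Of 9 antiviral TRIM genes, 5 had a peak, and TRIM5, TRIM14, TRIM25 and TRIM38 were in all 4 lists. TRIM25, which activates RIG-I, had 7.64 and 7.68 under sgNS against 5.10 and 5.07 under sgMETTL1, and its replicates were close together. TRIM14, an adaptor of antiviral signalling, had 8.36 and 9.69 against 7.75 and 6.34. TRIM38 had 5.29 and 5.07 against 51.8 and 5.55, so 1 sgMETTL1 list stood apart. The 5.55 came from a different site, and at the site of the other values that list had 4.63. Of 7 genes with a COS box, which binds microtubules, TRIM36 alone had a peak. Of the other TRIM genes, TRIM23, which carries an ARF domain, had 22.2 and 8.61 against 37.2 and 7.32, and TRIM8 had 6.15 and 5.29 against 4.96 and 5.46.

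Replicates limited what could be compared. For the 37 members of all 4 lists the stronger replicate was a median of 1.2 times the weaker with sgNS and 1.32 times with sgMETTL1, beside 1.25 and 1.30 over all genes. The ratio was above 2 for 8 of 37 members with either guide (21.6%, beside 12.7 and 15.8% of all genes). It reached 4.94 for RNF217 with sgNS and 9.33 for TRIM38 with sgMETTL1. These ratios use the strongest peak of a gene, and in both genes the folds of the replicates came from different sites.

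The 2 guides set QKI7-bound RNA with METTL1 targeted beside that of control cells. By presence of a peak few members differed: 2 of 58 were lost, listed in each sgNS replicate and in no sgMETTL1 replicate (3.45%, beside 4.63% of all genes), and 1 was gained in the reverse sense (1.72%, beside 1.52%). With 2 lists against 2, an exact two-sided permutation test cannot go below p = 0.333, so these are counts with no test. With equal numbers of peaks per list, taken by p, 0 members were lost and 2 gained. Without replicate 1 of sgMETTL1 5 members were lost, and without replicate 1 of sgNS 5 were gained. The shares over all genes are not given for these settings, so whether the members differ from them is not known.

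The lost members were RNF139 (TRC8, a sterol-responsive ligase of the endoplasmic reticulum) and TRIM36. RNF139 had single peaks of 16.2-fold (replicate 1 of sgNS) and 1.64-fold (replicate 2), with a −log10 p of 3.23 and 5.29, at different places on chromosome 8. TRIM36 had peaks of 16.2-fold and 6.94-fold in replicate 1 of sgNS and of 16.9-fold and 7.92-fold in replicate 2, with a −log10 p of 2.76 to 4.44. No peak of either gene was shared between the sgNS lists. The gained member was TRIM41, at 3.16-fold and 2.68-fold with sgMETTL1 (−log10 p of 4.77 and 3.82), at a shared site on the plus strand of chromosome 5 (181224186 to 181224335) in the first 10% of the gene.

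Peaks that shared at least 1 exon base on the same strand under the same gene name were joined into sites. The 350 member peaks formed 131 sites. Of these, 47 (35.9%, beside 41.3% of all sites) were in all 4 lists and 46 (35.1%, beside 32.4%) in only 1 list. Of the latter, 20 and 11 were in the sgNS lists and 6 and 9 in the sgMETTL1 lists. The sgNS lists were also longer over all genes, with 11562 and 11038 peaks against 10095 and 9388, and all sites were not split in this way. Lost sites numbered 4 of 131 (3.05%, beside 7.42% of all sites) and gained sites 1 (0.763%, beside 1.21%). With equal numbers of peaks per list, 1 member site was lost and 3 were gained. With 50% reciprocal overlap in place of 1 base, 9 were lost and 5 gained. With 1 list left out, 8 to 27 sites were lost and 2 to 10 gained. The shares over all sites are not given for these settings, so the shifts cannot be read as particular to the members.

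The 4 lost sites lay in RNF216, RNF217, RNF41 and TRIM71, transcripts with other peaks in at least 1 sgMETTL1 list. The TRIM71 site (chromosome 3, 32892616 to 32892885, plus strand) had low folds of 1.83 and 1.52 and the most support of the 4, with a −log10 p of 25.9 and 12.9. The RNF217 site (chromosome 6, 125083796 to 125083946, plus strand) had 20.8 and 5.63 with a −log10 p of 3.83 and 2.54. The RNF216 site had 1.81 and 1.83, and the RNF41 site 1.83 and 2.23. The gained site was that of TRIM41.

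Strength was then compared site by site, over the 6003 sites of any gene present in all 4 lists. No source states a common scale for folds of different lists. Each site's strongest fold was therefore ranked within its list and turned into a normal score, in which 0 is the middle site and higher is stronger. With limma and Benjamini-Hochberg adjustment over all sites at 5%, 0 of the 47 member sites were called (smallest adjusted p = 0.416), as were 0 of all 6003 (0.00%, smallest adjusted p = 0.333). At an unadjusted p under 0.05 there were 4 member sites lower with sgMETTL1 (8.51%, beside 5.05% of all sites) and 3 higher (6.38%, beside 5.41%). Both sgMETTL1 scores lay below both sgNS scores at 14 member sites (29.8%, beside 23.7%) and above them at 14 (29.8%, beside 20.3%). The median difference over the 47 sites was 0.088, beside −0.015 over all sites, and it turned to −0.032 without replicate 2 of sgNS and −0.007 without replicate 2 of sgMETTL1. On log2 folds it was −0.132, beside −0.224 over all sites.

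**Figure D3:**
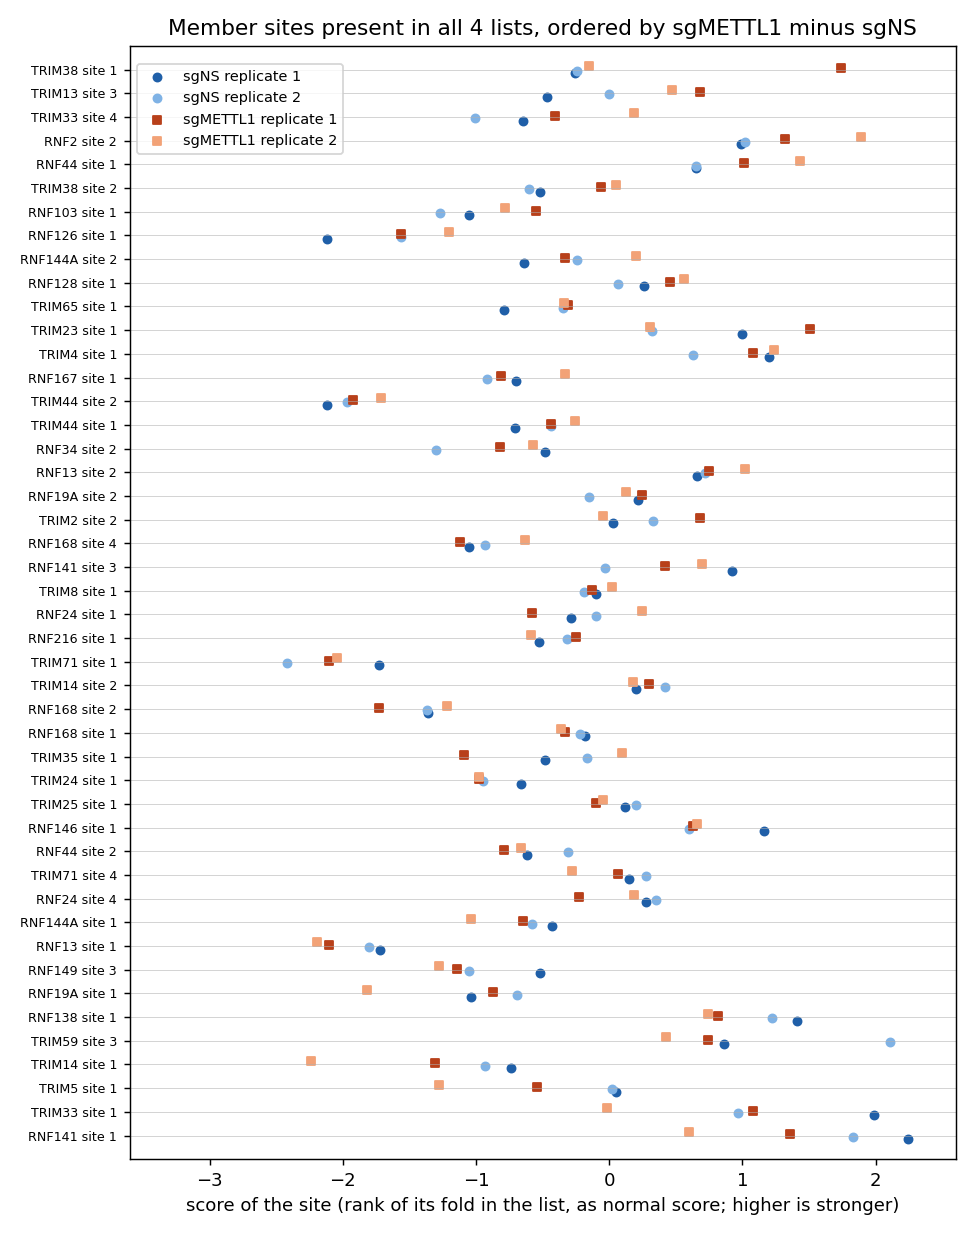
Scores of 46 of the 47 member sites present in all 4 lists, ordered by the difference sgMETTL1 minus sgNS; circles are sgNS and squares sgMETTL1 lists, 1 point per list, and sites of a gene are numbered along the chromosome. At RNF141 site 1 both squares lie to the left of both circles, at TRIM13 site 3 to the right, and 0 of the 47 sites passed limma's test.

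The lower sites with the smallest p were in RNF141, TRIM5, RNF138 and TRIM14. RNF141, a RING finger gene first described in testis, had its site next to the 3′ end (chromosome 11, 10511708 to 10512483, minus strand) with folds of 83.3 and 52.8 in the sgNS lists against 30.5 and 10.2 in the sgMETTL1 lists. Both sgMETTL1 folds were below both sgNS folds. The −log10 p was 44.1 and 40.3 with sgNS against 47.9 and 29.8 with sgMETTL1, and in this the guides overlapped. The score difference was −1.06 (SE 0.323, limma's adjusted p = 0.422).

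TRIM5, a restriction factor that recognises retroviral capsids, had 7.09 and 6.40 with sgNS and 3.53 and 2.10 with sgMETTL1 at its site on chromosome 11 (5663642 to 5664000, minus strand). The difference was −0.95 (SE 0.292, limma's adjusted p = 0.422). Its other site, absent from replicate 1 of sgNS and replicate 2 of sgMETTL1, had 3.31 and 6.10.

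The RNF138 site (chromosome 18, 32129192 to 32129791, plus strand) had the folds given above for that gene, with a −log10 p of 222 and 204 in the sgNS lists against 65.6 and 49.6 in the others. The difference was −0.54 (SE 0.187, limma's adjusted p = 0.44). The peaks covered 600 and 540 bases against 361 and 421. Over all sites, both sgMETTL1 values of −log10 p lay below both sgNS values at 76.2%, and both widths at 49.1%. The weaker TRIM14 site (chromosome 9, 98085431 to 98085910, minus strand) had 3.54 and 2.99 against 2.22 and 1.48, a difference of −0.94 (SE 0.346, limma's adjusted p = 0.461).

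The higher sites with the smallest p were in TRIM13, TRIM38, RNF44 and TRIM33. TRIM13, a ligase of the endoplasmic reticulum membrane, had 4.48 and 6.34 with sgNS and 12.2 and 8.79 with sgMETTL1 at the 3′ end of its gene (chromosome 13, 50018257 to 50018467, plus strand). The difference was 0.81 (SE 0.239, limma's adjusted p = 0.416), on peaks with a −log10 p of 4.10 to 6.52. A different TRIM13 peak, in replicate 1 of sgNS, shared bases with a peak named KCNRG, and its assignment is uncertain.

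The second TRIM38 site (chromosome 6, 25987060 to 25987329, plus strand) had folds of 4.27 and 3.77 under sgNS against 5.26 and 5.55 under sgMETTL1. The sgMETTL1 peaks there were short, at 120 bases (25987060 to 25987179) and 91 bases (25987239 to 25987329), and shared no base. They were joined because the wider sgNS peaks overlap both, so their folds describe different stretches. The score difference of the site was 0.55 (SE 0.181, limma's adjusted p = 0.425). RNF44 had 14.1 and 12.8 against 19.4 and 31.5 at its 3′ site (chromosome 5, 176526699 to 176527715, minus strand), a difference of 0.57 (SE 0.219, limma's adjusted p = 0.467). At these sites the folds of the guides did not overlap. TRIM33 had 3.8 and 2.84 against 3.93 and 6.40 at its upstream site (chromosome 1, 114396496 to 114396976, minus strand), with a difference of 0.72 (SE 0.282, limma's adjusted p = 0.474).

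Of the 8 genes with these sites, RNF141, RNF44, TRIM33, TRIM14 and TRIM38 had a second site in all 4 lists. Its score difference was of the other sign in RNF141 (0.11), in RNF44 (−0.26) and at the 3′ site of TRIM33 (−0.95), with limma's adjusted p of 0.937, 0.676 and 0.546. It was of the same sign in TRIM14 (−0.07) and at the first site of TRIM38 (1.05), with limma's adjusted p of 0.919 and 0.581. The ratio of 2 sites of a gene within a list does not depend on scaling between lists. In RNF141 the site at the 3′ end was 4.16 and 8.53 times as strong with sgNS as the site 1436 bases or more from that end (10513109 to 10514062), and 3.40 and 0.887 times with sgMETTL1. In TRIM33 the site at the 3′ end (114392807 to 114393167) was 17.1 and 6.94 times as strong as the upstream site with sgNS, and 5.42 and 0.814 times with sgMETTL1. In RNF44 the 3′ site was 3.60 and 2.68 times as strong as its neighbour (176528013 to 176530158) with sgNS and 6.49 and 10.2 times with sgMETTL1. In TRIM14 the site given above was 0.423 and 0.309 times as strong as its second site (98086538 to 98087556) with sgNS and 0.286 and 0.233 times with sgMETTL1. In these 4 genes the guides did not overlap, which also held for 40.9% of the 2976 such pairs of all genes. The genes were picked by the p of 1 of the 2 sites in each ratio, so the ratios are no separate support. In TRIM38 the first site was 1.24 and 1.34 times as strong as the second with sgNS and 9.85 and 0.834 times with sgMETTL1, and the guides overlapped.

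**Figure D4:**
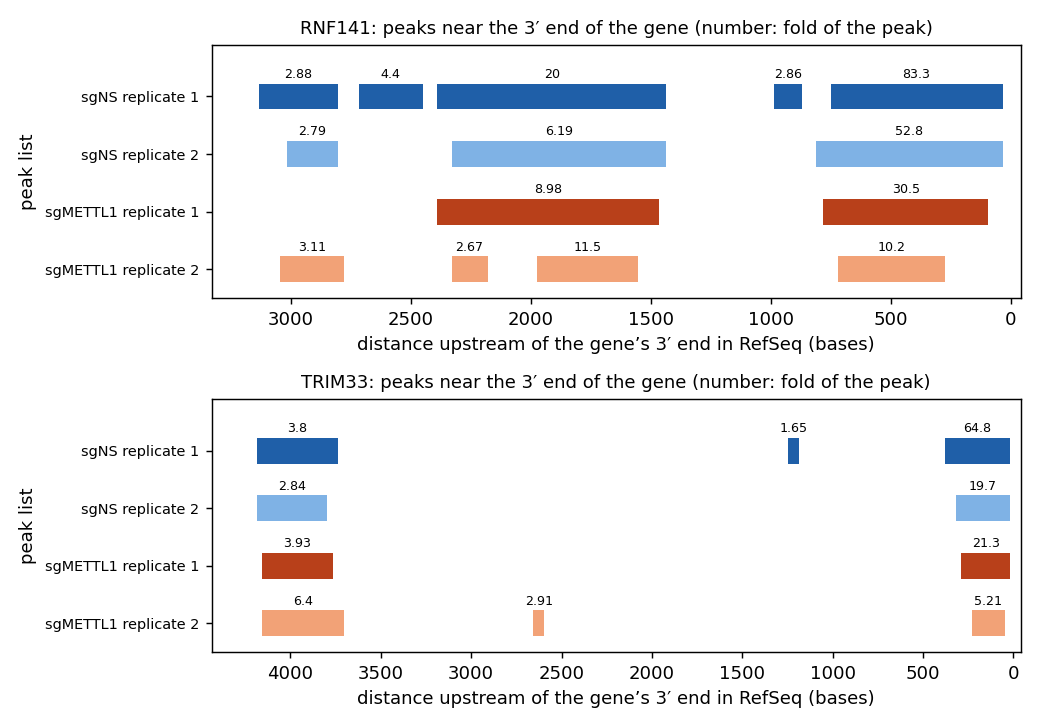
Peaks of RNF141 and TRIM33 in each list against the distance in bases from the gene's 3′ end in RefSeq (3′ end at the right), with the authors' fold printed above each bar. At the right-hand site the folds are 83.3 and 52.8 (sgNS) against 30.5 and 10.2 (sgMETTL1) in RNF141, and 64.8 and 19.7 against 21.3 and 5.21, which overlap, in TRIM33, whose upstream site lies between 2.84 and 6.40.

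The strongest peak of a gene was at more than 1 site across the lists for 12 of 37 members (32.4%, beside 24.9% of genes in all 4 lists). These were RNF24, RNF125, RNF141, RNF144A, RNF149, RNF217, RNF219, TRIM2, TRIM5, TRIM33, TRIM38 and TRIM59, whose folds by gene set unlike places side by side. Pairs of sites that were both in all 4 lists numbered 14 in 12 members. The guides' ratios did not overlap in 9 of the 14 (64.3%, beside 40.9% of 2976 such pairs of all genes). RNF168 gave 3 of the pairs, so pairs are not separate observations. The median size of the difference was 0.54 on the log2 scale, beside 0.41 over all pairs. These pairs were examined after the site folds had been seen, and with 2 lists against 2 they allow no test below p = 0.333 by exact permutation.

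Taking the strongest peak of a gene in place of matched sites gave the same kind of result. Limma called 0 of 37 members (smallest adjusted p = 0.415) and 0 of 4150 genes (0.00%), and 4 members (10.8%, beside 9.83% of genes) had an unadjusted p under 0.05. TRIM13 and RNF44 were the 2 higher (5.41%, beside 5.11%), RNF141 and RNF138 the 2 lower (5.41%, beside 4.72%). With all peaks of a gene averaged, 3 of these turned direction: RNF141 to 0.041, RNF138 to 0.192 and RNF44 to −0.186. Both sgMETTL1 scores lay below both sgNS scores for 6 members (16.2%, beside 22.7% of genes) and above them for 10 (27.0%, beside 20.0%). The median difference over the members was 0.181, beside −0.017 over all genes. On log2 folds it was −0.06, beside −0.239.

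Peaks were narrower and had larger p-values in the sgMETTL1 lists, over members and over all genes. At the 47 member sites the median summed width was 509 and 511 bases with sgNS and 331 and 418 with sgMETTL1, and over all sites it was 481 and 480 against 390 and 390. Both sgMETTL1 widths were below both sgNS widths at 26 of 47 member sites (55.3%, beside 49.1% of all sites). The median −log10 p was 45.5 and 34.1 under sgNS against 16.9 and 16.1 under sgMETTL1, and both sgMETTL1 values were below both sgNS values at 34 sites (72.3%, beside 76.2%). A p-value moves with the number of reads, which the lists do not give, so the part of sequencing depth in the counts of lost and gained peaks was not tested.

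Transcripts of E1 and E2 enzymes, which act before the ligase, were also in the lists. Of 32 E2 genes, 22 had a peak and 16 were in all 4 lists. Of the 22 with a peak, 1 was lost (UBE2D3, at 9.84-fold and 12.7-fold with sgNS), beside 4.63% of all genes with a peak. Of the same 22, 0 were gained, beside 1.52%. UBE2D1, a common partner of RING ligases, had 20.8 and 13.7 with sgNS and 14.2 and 10.4 with sgMETTL1. Its guides overlapped (score difference −0.137, limma's adjusted p = 0.853). UBE2R2 had 26.1 and 31.7 against 20.8 and 14.4, and UBE2J1, of the endoplasmic reticulum, 23.6 and 22.5 against 14.6 and 17.7. Their score differences were −0.352 and −0.193, with limma's adjusted p of 0.603 and 0.755. In the other direction, UBE2J2 had 2.70 and 3.13 against 5.01 and 4.48 (score difference 0.84, limma's adjusted p = 0.352). UBE2A had 9.18 and 5.87 against 18.3 and 6.74 (0.55, limma's adjusted p = 0.609), and its guides overlapped. The E2 genes given with values were chosen after their values were seen. The E1 genes UBA1 (3.07 and 3.12 against 2.81 and 2.59) and UBA6 (7.14 and 4.87 against 8.59 and 6.73) were in all 4 lists, and the ubiquitin genes UBB and RPS27A had no peak. Limma called 0 of the 16 E2 genes in either direction and 0 of the 2 E1 genes. The E2 score was higher with sgMETTL1 for 6 of 16 genes (37.5%, beside 47.8% of all genes), with a median difference of −0.137, beside −0.017.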

How the data were processed

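Per the submitters' processing notes, reads were aligned with STAR to GRCh38. For the STAR version, peak caller, input normalisation and threshold, nothing is given in the sources used here. Each deposited list comes from 1 IP and 1 input sample. The fold of a peak is a ratio deposited by the authors; the p-value, and log10 values of it and of its FDR, handled as a score, are likewise deposited by the authors.

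Members, lists and tests were chosen with earlier results of these data known. Peaks were joined into sites over exon blocks (at least 1 base, same strand and name). The strongest fold per site or gene was ranked within a list, converted to a normal score and compared, 2 lists per guide, using limma 3.58.1 (R 4.3.3; two-sided, Benjamini-Hochberg over all sites or genes at 5%). Joining and fit were tested on simulated data. Other work used Python 3.11.15, pandas 2.3.3, numpy 2.4.6, scipy 1.17.1 and matplotlib 3.10.9. Coordinates are 1-based. Gene spans and names came from RefSeq GRCh38.p14: 57 of 58 members matched by current symbol and 1 (RNF219, now OBI1) by an older one. RNF and TRIM genes described singly were the 8 best-ranked, the lost and gained, the 4 with most sites (RNF24, RNF125, RNF141, TRIM2), the 4 sites with smallest p in each direction, and up to 3 per role group. Ratios between sites of a gene were added after the site folds had been seen. Sequences of the sites were not used here. Totals cover all members, but 1 member and some pathway genes are not reported here singly or drawn. Alternatives were equal numbers of top peaks, a fold of 2 times the list minimum, an FDR of 1%, 50% reciprocal overlap, log2 folds, the mean of peaks, a replicate block and leaving out each list.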

Additional observations from a re-analysis of the deposited data

How the results depend on the processing

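The number of members in all lists kept within 35 to 41 under the alternatives run. The small counts did not hold steady. With equal numbers of peaks per list (9388, best by p) 0 members were lost and 2 gained, and 1 site was lost and 3 gained. With folds of at least 2 times the list minimum 1 member and 2 sites were lost. At an FDR of 1% 2 sites were gained, and with 50% reciprocal overlap 9 were lost and 5 gained. With 1 list left out, 3 to 5 members were lost and 1 to 5 gained. Of the sites, 8 to 27 were lost and 2 to 10 gained, the construction then asking for fewer lists. Shares over all genes or sites are not given for these alternatives, so the shifts cannot be read as particular to the members. Limma called 0 member sites and 0 member genes on log2 folds, centred or not, with the mean of peaks, and with each list left out, and 0 member sites with 50% reciprocal overlap; the equal-number, fold and FDR settings were counts of peaks with no such fit. The median site difference ranged from −0.032 to 0.103 with 1 list left out and the median gene difference from 0.054 to 0.266; on log2 folds they were −0.132 and −0.06, below 0 as over all sites and genes. Where 1 list was left out, limma assumes the lone list to vary like the others.

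The median site difference (0.088 as reported) and, on log2 folds, the median gene difference (0.181) changed sign in the settings given above. Among the genes and sites followed singly, differences changed sign only for the strongest peak of a gene. Averaging all peaks of a gene gave 0.041 for RNF141, 0.192 for RNF138 and −0.186 for RNF44. RNF125 stood at −0.092 on log2 folds and at −0.201 (without replicate 1 of sgNS) to 0.243 with 1 list left out, with −0.155 without replicate 1 of sgMETTL1. TRIM4 ranged from −0.061 (without replicate 2 of sgNS) to 0.584. For these the cause was not tested. The 8 sites described singly kept their direction on log2 folds, centred or not, with the mean of peaks, with the block and with each list left out; the other member sites were not followed singly. The deviations of same-numbered replicates correlated at −0.000892 over sites and −0.00153 over genes, so the numbers were not taken as pairs. With the replicate number as a block, limma again called 0 member sites and genes, with medians of 0.088 and 0.181.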

Other observations

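Transcripts with many separate sites held several peaks of unlike strength. RNF24 had 6 sites, with folds up to 9.04, and RNF141, RNF125 and TRIM2 had 5. RNF168 and several other members, among them RNF138, TRIM33 and TRIM71, had 4. In TRIM44, which has a TRIM name but no RING finger, 1 site lay at the start of the gene (chromosome 11, 35663290 to 35663618, plus strand), with folds of 3.61 and 4.26 (sgNS) against 3.85 and 4.19 (sgMETTL1), and the other in the last 10% of the gene, at 1.70 and 1.71 against 1.66 and 1.71. RNF168 had a site of up to 4 exon blocks outside the 3′ end (chromosome 3, 196483880 to 196503440, minus strand), at 2.86 and 2.99 against 2.47 and 3.16. The first TRIM38 site was listed at 51.8-fold in replicate 1 of sgMETTL1 (−log10 p of 11.2) and at 4.63-fold to 5.29-fold in the other lists.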
